A study of Mus musculus with 17 samples.

Results

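Interferon-stimulated genes, whose transcription rises when a cell senses interferon, were examined in sorted mouse medullary thymic epithelial cells on Affymetrix Mouse Gene 1.0 ST arrays. The set held 40 named genes, of which 34 had a probe set assigned to that gene alone and were measured, among 19752 genes in all. For a gene with several such probe sets, the set brightest on average over the 17 arrays stood for it. Isg15, Gbp2, Igtp, Irgm2 and Ifi47 are on the array only through probe sets that name several genes, and these and Ifi44 were not analysed here. All 34 measured genes were among the 13842 genes tested, those above the 40th percentile of their array on at least 2 arrays. Mx2 passed on exactly 2 arrays, both of GFP- cells, where it was high, so its values elsewhere lie near the floor of the measurement.

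All cells came from C57BL/6 mice that carry the Adig reporter, in which green fluorescent protein is expressed under control of Aire, the transcriptional regulator that lets medullary epithelium display tissue-restricted self antigens to developing T cells. Cells were sorted as CD45- Ly51- MHCIIhi and then by GFP, so the GFP+ gate follows activity of the reporter and not the Aire protein. The 6 groups were adult (5 weeks) Aire-WT GFP- cells (3 arrays, numbered 6, 7 and 8), adult Aire-WT GFP+ cells (3 arrays, 6, 7 and 8), adult Aire-KO GFP+ cells (3 arrays, 1, 2 and 3), and, from perinates, Aire-WT GFP- cells (2 arrays, 1 and 2), Aire-WT GFP+ cells (3 arrays, 5, 6 and 7) and Aire-KO GFP+ cells (3 arrays, 1, 2 and 3). Perinates are labelled 3 days old on the samples and from 0 to 3 days old in the series description, and the sex of every sample is given as mixed. How many animals gave each sample was not stated, so the p-values describe how these samples varied, and part of that spread may be technical.

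Type I and type III interferons signal through JAK kinases to a complex that includes STAT2 and IRF9 and binds interferon-stimulated response elements in target promoters, whereas type II interferon acts mainly through gamma-activated sites. The induced proteins bind or cut foreign RNA, restrict viruses at membranes, or amplify the response by raising sensors and transcription factors. In the thymus, medullary epithelial cells and dendritic cells have been described as keeping an interferon programme active without infection.

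RefSeq promoter windows (GRCm38.p6, from 250 bases before to 50 bases after an annotated start) were available for 23 of the 34 measured genes. The core of the interferon-stimulated response element, 2 copies of the letters GAAA with any 2 bases between them, was searched on both strands, and 13 of the 23 genes (56.5%) held at least 1 match. The same pattern was present in 1079 of 27025 genes of the table (3.99%). The letters TTCNNNGAA, a core of the gamma-activated site that reads the same on both strands, were present in 5 of the 23 genes (21.7%), against 9.55% of all genes. Matches of both kinds were allowed to overlap. The 250 bases before the start are shown for 6 of the genes that differed between Aire-KO and WT cells, 5′ to 3′ on the gene's own strand, with matches to the response element in capitals. Where RefSeq gives a gene more than 1 start, the first is shown. Ifit3 is at chr19:34583279-34583528 (+ strand), Rsad2 at chr12:26456453-26456702 (- strand), Trim30a at chr7:104465194-104465443 (- strand), Ifit2 at chr19:34550444-34550693 (+ strand), Oasl1 at chr5:114922990-114923239 (+ strand) and Irf7 at chr7:141266425-141266674 (- strand).
Ifit3: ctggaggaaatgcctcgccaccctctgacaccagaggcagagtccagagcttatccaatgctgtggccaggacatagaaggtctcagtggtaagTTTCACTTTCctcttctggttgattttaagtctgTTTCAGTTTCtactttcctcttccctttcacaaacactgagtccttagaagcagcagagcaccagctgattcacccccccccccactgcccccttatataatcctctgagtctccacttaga
Rsad2: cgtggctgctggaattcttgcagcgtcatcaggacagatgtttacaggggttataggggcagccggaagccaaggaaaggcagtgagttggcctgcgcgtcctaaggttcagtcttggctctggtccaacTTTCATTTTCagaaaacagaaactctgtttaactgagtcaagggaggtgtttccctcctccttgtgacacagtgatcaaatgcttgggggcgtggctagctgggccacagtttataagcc
Trim30a: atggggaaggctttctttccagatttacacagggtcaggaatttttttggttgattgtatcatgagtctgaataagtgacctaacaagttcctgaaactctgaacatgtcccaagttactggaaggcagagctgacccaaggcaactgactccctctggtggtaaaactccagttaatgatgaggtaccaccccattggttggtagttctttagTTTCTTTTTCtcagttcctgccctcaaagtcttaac
Ifit2: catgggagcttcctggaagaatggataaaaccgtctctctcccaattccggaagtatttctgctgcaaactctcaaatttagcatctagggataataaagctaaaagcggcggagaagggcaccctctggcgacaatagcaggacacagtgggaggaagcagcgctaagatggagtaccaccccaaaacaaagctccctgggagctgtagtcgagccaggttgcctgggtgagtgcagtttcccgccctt
Oasl1: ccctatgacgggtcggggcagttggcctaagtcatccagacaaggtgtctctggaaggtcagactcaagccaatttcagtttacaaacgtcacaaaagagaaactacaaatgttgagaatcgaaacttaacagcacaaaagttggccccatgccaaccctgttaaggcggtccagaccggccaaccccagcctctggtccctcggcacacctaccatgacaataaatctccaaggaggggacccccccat
Irf7: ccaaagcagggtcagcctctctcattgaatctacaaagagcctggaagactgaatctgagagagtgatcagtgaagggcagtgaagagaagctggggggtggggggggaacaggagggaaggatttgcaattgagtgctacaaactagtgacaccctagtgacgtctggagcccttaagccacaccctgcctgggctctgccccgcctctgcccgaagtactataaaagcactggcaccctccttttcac
Ifit3 held 2 matches, beginning 156 and 122 bases before the start, both as the reverse complement, TTTC. Rsad2 held 1 match, 120 bases before the start, and Trim30a held 1, 36 bases before the start. The windows of Ifit2, Oasl1 and Irf7 held none of these letters, which says only that this exact string is not within them.

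The arrays' medians lay between 144.5 and 157.1 intensity units. They were lower on KO arrays (144.5 to 151.9) than on WT GFP+ arrays (153.8 to 157.1), so KO counts with each array centred on its median are given below. Each array's 40th percentile lay between 96.2 and 112. It was 96.2 to 102.5 on KO arrays and 104.9 to 112.1 on WT arrays. All 10 medullary epithelial markers were measured, and each was above that percentile on at least 1 array of every group. The Aire probe set gave 270 to 930.1 on GFP- arrays and 4072 to 6196 on GFP+ arrays. Aire transcript was as high in KO cells (4689 to 5241 in adults, 4072 to 6000 in perinates) as in WT GFP+ cells. Which part of the gene is deleted is not given in the labels, so its signal cannot serve as a check of genotype. The Y-linked transcript Uty was low in perinate KO cells on array 2 (19.2) and array 3 (16.1), where all 15 remaining arrays gave 169 to 366. Xist was high there, at 5203 and 5167 (2104 to 4509 elsewhere). Counts for perinate KO cells are therefore also given without these 2 arrays, an alternative chosen after the data were seen.

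**Figure D1:**
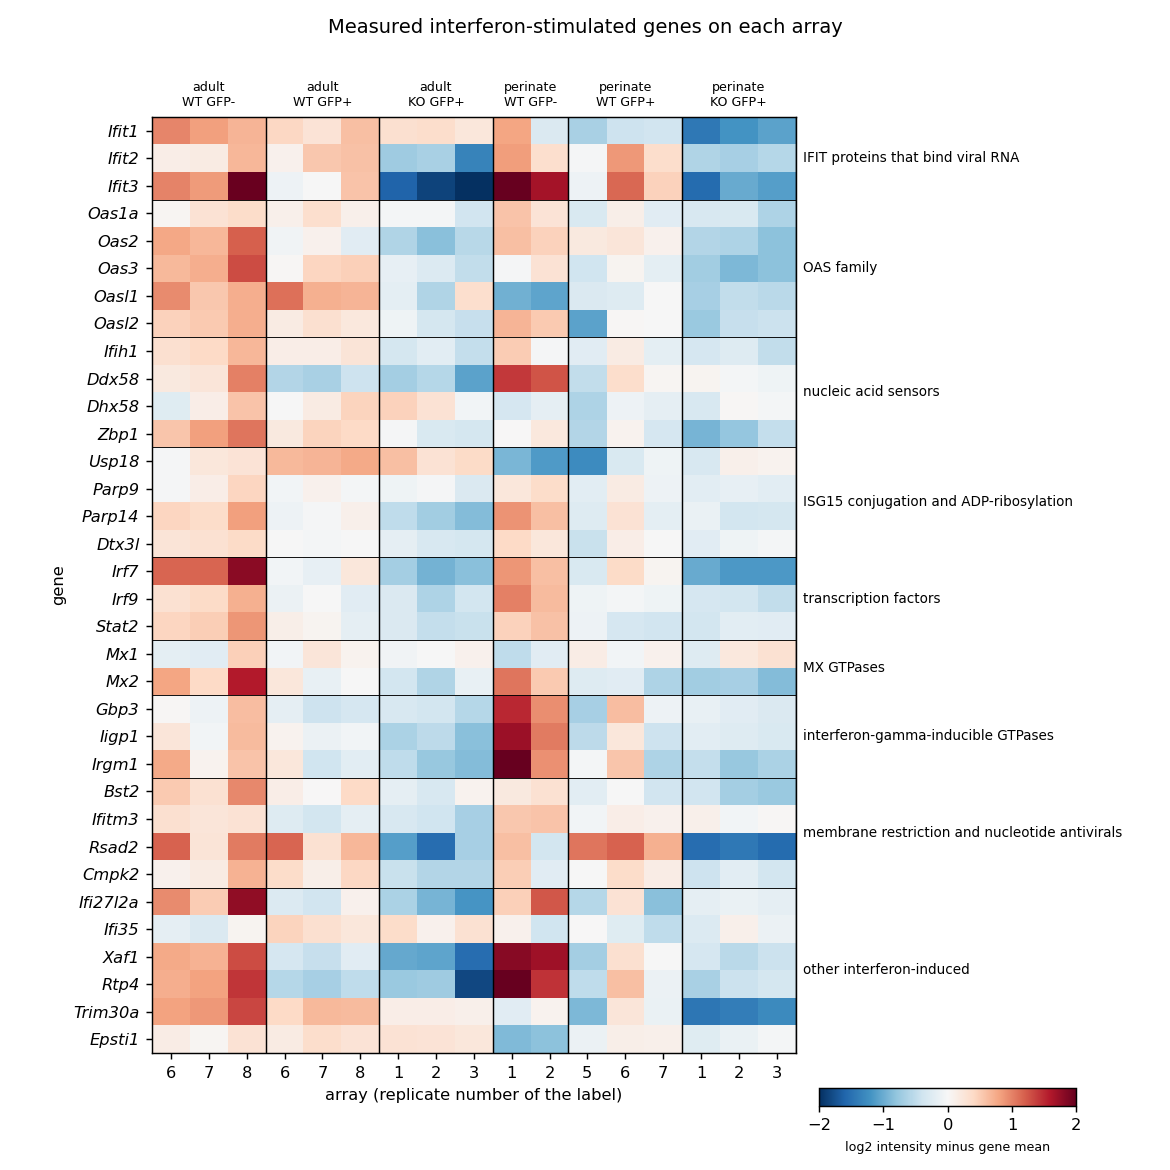
Log2 intensity of each measured interferon-stimulated gene (rows, grouped by role) on each of the 17 arrays (columns, by group and label number), minus the gene's mean over all arrays; colours stop at -2 and 2. GFP- arrays are red for many genes, the 6 KO arrays are blue for Ifit3, Rsad2, Irf7 and Oas2, and adult GFP- array 8 is red for most genes.

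Loss of Aire went with lower interferon-stimulated transcripts in adult GFP+ cells. Of the 34 genes, 14 were lower in adult KO than adult WT GFP+ cells (41.2%, against 10.8% of all genes tested that were called lower) and 0 were higher (against 9.06%). The test was limma's moderated test over all 17 arrays, with Benjamini-Hochberg adjustment over the 13842 genes and a call at an adjusted p below 0.05. At an unadjusted p below 0.05, 19 were lower and 0 higher. The median log2 difference of the 34 genes was -0.47, against 0.059 for all genes tested, and 33 of the 34 lay below 0. In 23 of the 34 genes every KO array was below every WT GFP+ array, a pattern seen in 16.9% of all genes, and in 0 of 34 every KO array was above (23.4% of all genes). Because these are bulk samples, fewer cells making a transcript and less transcript per cell cannot be told apart here.

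In perinates 9 of the 34 genes were lower in KO than WT GFP+ cells (26.5%, against 13% of all genes called lower) and 0 were higher (against 13.5%). At an unadjusted p below 0.05, 12 were lower and 1, Usp18, was higher. The median log2 difference was -0.29, against 0.085 for all genes, with 27 of 34 genes below 0, and in 15 of 34 genes every KO array was below every WT array, against 18.2% of all genes. In 0 of 34 every KO array was above, against 24.9%. The 7 genes lower at both ages were Ifit2, Ifit3, Oas2, Oas3, Rsad2, Cmpk2 and Irf7, which are 50% of the adult calls and 77.8% of the perinate calls. These comparisons share no arrays. When each array was centred on its own median, the median of all genes shifted to 0.12 in adults and 0.15 in perinates. The split of all genes then became 9.75% lower and 15.4% higher in adults and 11.5% lower and 23% higher in perinates, and the interferon-stimulated genes gave 13 lower and 0 higher in adults and 8 lower and 1 higher (Usp18, adjusted p = 0.0461) in perinates.

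The IFIT proteins act against viral RNA, and the product of Ifit1 binds RNA that lacks the host's cap methylation and stops its translation. Ifit3 was 236, 253 and 376 on the 3 adult WT GFP+ arrays and 83.7, 70.3 and 42.8 on the 3 adult KO arrays, and in perinates it was 237, 563 and 349 in WT GFP+ and 86.7, 126 and 118 in KO cells. No KO array reached a WT GFP+ array of its age. It fell in adults (log2 difference -2.16 ± 0.33 SE, adjusted p = 0.00014) and in perinates (log2 difference -1.73 ± 0.33 SE, adjusted p = 0.00117). Ifit2 was 166, 228 and 233 in adult WT GFP+ cells and 95.2, 99.3 and 61.7 in adult KO cells (log2 difference -1.31 ± 0.23 SE, adjusted p = 0.00045). Its perinate values were 154, 286 and 198 in WT GFP+ and 103, 98.5 and 105 in KO cells (log2 difference -1.01 ± 0.23 SE, adjusted p = 0.00376). In adult KO cells both genes lay below the 40th percentile of every array, so their differences are limited by the floor of the array and are not ranked. Ifit1 was 1310, 1189 and 1505 in adult WT GFP+ and 1233, 1260 and 1150 in adult KO cells, which overlap (-0.13 ± 0.19 SE, adjusted p = 0.685), but 626, 744 and 753 in perinate WT GFP+ and 367, 430.3 and 471 in perinate KO cells, which do not (log2 difference -0.74 ± 0.19 SE, adjusted p = 0.0101). The difference between those 2 KO effects was -0.61 ± 0.28 SE with an adjusted p of 0.266 and was not called.

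Rsad2 encodes viperin, which makes a chain-terminating nucleotide that blocks viral RNA synthesis, and its neighbour Cmpk2 encodes a nucleotide kinase that feeds it. Rsad2 was 607, 333 and 427 in adult WT GFP+ cells and 125, 93.7 and 169.6 in adult KO cells. In perinates it was 569.7, 609 and 439.5 in WT GFP+ and 93.5, 100.3 and 92.7 in KO cells, and the groups did not overlap at either age. It fell in adults (log2 difference -1.81 ± 0.28 SE, adjusted p = 0.000155) and in perinates (log2 difference -2.48 ± 0.28 SE, adjusted p = 5.49e-06). Rsad2 lay below the 40th percentile on 1 of 3 adult and 2 of 3 perinate KO arrays, so the floor limits these differences too. Cmpk2 fell at both ages, by a log2 difference of -0.84 ± 0.18 (adjusted p = 0.00247) in adults and -0.50 ± 0.18 (adjusted p = 0.0469) in perinates. The membrane proteins Bst2 (tetherin, which holds budding virions) and Ifitm3 (which blocks viral fusion) were called in neither. Ifitm3 was 6677, 6217 and 7018 in adult WT GFP+ and 6406, 6065 and 5034 in adult KO cells, and 7720, 8737 and 8500 in perinate WT GFP+ and 8610, 7673 and 8113 in perinate KO cells, with overlap at both ages.

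**Figure D2:**
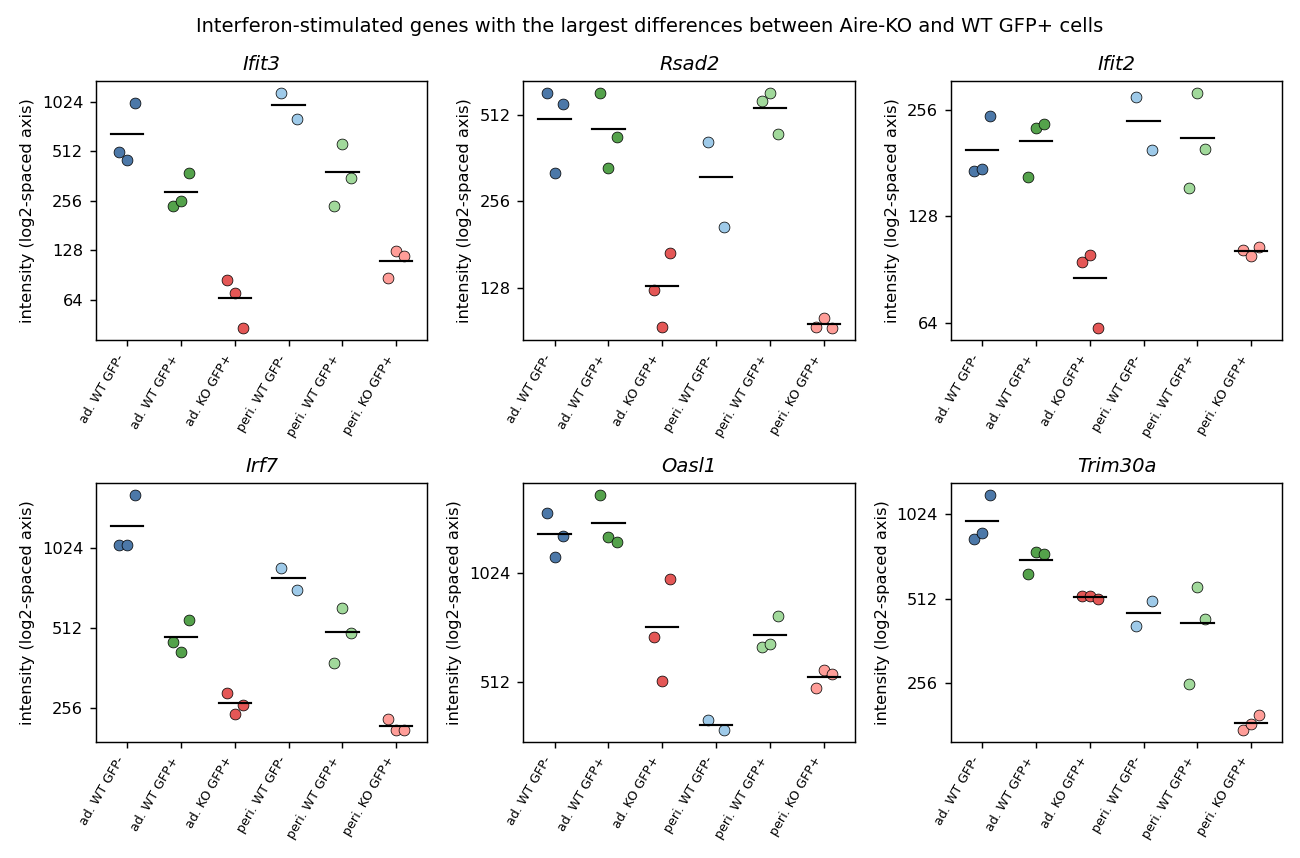
Intensity (log2-spaced axis) of Ifit3, Rsad2, Ifit2, Irf7, Oasl1 and Trim30a on each array by group; points are arrays and lines are group means. For Ifit3 and Rsad2 the KO points lie below the WT GFP+ points at both ages, whereas for Trim30a the perinate KO points stand below all other groups.

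Of the 5 OAS genes, 3 were called lower in adult KO cells. Oas2 and Oas3 make the second messenger that activates the nuclease RNase L, and Oasl1 is a catalytically inactive relative that restrains translation of Irf7. Oasl1 was 1690, 1287 and 1253 in adult WT GFP+ and 684, 517 and 990.3 in adult KO cells (log2 difference -0.99 ± 0.18 SE, adjusted p = 0.000827), whereas in perinates it was 642, 656 and 782 in WT GFP+ and 495, 554 and 539 in KO cells (-0.38 ± 0.18 SE, adjusted p = 0.13, not called). The adult KO minus WT difference was not shown to be larger than the perinate one (difference 0.60 ± 0.26 SE, adjusted p = 0.249). Oas2 fell at both ages (-0.59 and -0.85), from 121, 134 and 108 to 83.7, 70.7 and 85.9 in adults and from 146, 150.4 and 135 to 84.2, 82.9 and 71.6 in perinates. Its KO values were below the 40th percentile on all 6 arrays. Oas3 fell by log2 differences of -0.62 ± 0.17 (adjusted p = 0.0171) and -0.63 ± 0.17 (adjusted p = 0.0134), and lay below that percentile on 2 of 3 perinate KO arrays. Oasl2, which is like Oasl1 in domain layout, was 2570, 2864 and 2657 in adult WT GFP+ and 2156, 1801 and 1658 in adult KO cells and 1097, 2324 and 2269 in perinate WT GFP+ and 1376, 1659 and 1701 in perinate KO cells, and neither it nor Oas1a was called. Under other settings Oasl2 was called lower in adults, with quantile normalization (adjusted p = 0.0482), array weights (0.0218) or only the groups compared (0.00933).

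Among the transcription factors, Irf7, the factor that amplifies interferon production, fell at both ages. It was 452, 418 and 547 in adult WT GFP+ and 293, 243 and 264 in adult KO cells (log2 difference -0.82 ± 0.18 SE, adjusted p = 0.00336), and 378, 611 and 489 in perinate WT GFP+ and 233, 212 and 212 in perinate KO cells (log2 difference -1.14 ± 0.18 SE, adjusted p = 0.000185). Stat2, which joins IRF9 in the complex activated by type I interferon, fell in adults (log2 difference -0.41 ± 0.13 SE, adjusted p = 0.0296) and had a difference of 0.0034 ± 0.13 SE in perinates (adjusted p = 0.987). Irf9, the DNA-binding part of that complex, was 586, 634 and 544 in adult WT GFP+ and 517, 414 and 492 in adult KO cells and 595, 616 and 600.2 in perinate WT GFP+ and 500.4, 495 and 451 in perinate KO cells, and was not called at either age. Its KO and WT GFP+ arrays did not overlap at either age. It was called lower in adults and perinates with quantile normalization (adjusted p = 0.0395 and 0.0118) and with array weights (0.0267 and 0.033). Irf7 and Irf9 belong to a family in which Irf5 and Irf8 moved the other way in perinate KO cells (0.48 and 0.54).

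Of the 4 nucleic acid sensors 2 were called lower in adult KO cells and none was called in perinates. Ifih1 (MDA5, a sensor of long double-stranded RNA) was 723, 724 and 792 in adult WT GFP+ and 519, 568 and 475 in adult KO cells (log2 difference -0.52 ± 0.14 SE, adjusted p = 0.0162), and 565, 741 and 575 in perinate WT GFP+ and 525, 555 and 472 in perinate KO cells, which was not called. Zbp1, a sensor of Z-form nucleic acids, fell in adults (log2 difference -0.57 ± 0.17 SE, adjusted p = 0.0256). In perinates its log2 difference was -0.44 and was not called. With quantile normalization Zbp1 (adjusted p = 0.025) and Ifih1 (0.0341) were called lower in perinates, and with array weights Zbp1 was (0.0383). Ddx58 (RIG-I) and Dhx58 (LGP2), which sense or tune sensing of viral RNA, were called at neither age, and Dhx58 was the single gene of the set above 0 in adult KO cells (0.036). In the group around ISG15, a ubiquitin-like protein, Parp14 fell in adults (log2 difference -0.68 ± 0.15 SE, adjusted p = 0.0041), while Parp9 and Dtx3l, an ADP-ribosyltransferase and its ubiquitin ligase partner, were not called. Usp18, which removes ISG15 and dampens the receptor, was 3722, 3801 and 4043 in adult WT GFP+ and 3625, 2899 and 3113 in adult KO cells, and 992, 1925 and 2231 in perinate WT GFP+ and 1917, 2545 and 2505 in perinate KO cells. It was called at neither age, and its perinate estimate was above 0 (0.51 ± 0.22 SE, adjusted p = 0.0918).

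The 3 interferon-gamma-inducible GTPases measured, Gbp3, Iigp1 and Irgm1, attack the vacuoles of intracellular pathogens. Iigp1 was 472, 417 and 434 in adult WT GFP+ and 291, 312 and 252 in adult KO cells (log2 difference -0.63 ± 0.20 SE, adjusted p = 0.0342), and neither Gbp3 nor Irgm1 was called at either age. The MX GTPases, which trap viral nucleocapsids, were not called either, and Mx1 was 151, 184 and 164 in adult WT GFP+, 148, 155 and 166 in adult KO, 172, 150.2 and 166 in perinate WT GFP+ and 131, 180 and 192 in perinate KO cells. Among the other induced genes, Xaf1, a pro-apoptotic factor, fell in adults (log2 difference -0.86 ± 0.21 SE, adjusted p = 0.00731), to below the 40th percentile on all 3 KO arrays. Trim30a, a TRIM protein that limits inflammatory signalling, was 255, 564 and 435 in perinate WT GFP+ and 175, 183 and 198 in perinate KO cells (log2 difference -1.10 ± 0.21 SE, adjusted p = 0.000973). In adults it was 626, 750.2 and 737 in WT GFP+ and 522, 522 and 513 in KO cells, groups that did not overlap but were not called (-0.44 ± 0.21 SE, adjusted p = 0.161). Ifi27l2a, Ifi35, Rtp4 and Epsti1 were called at neither age, and Ifi35 was 951, 870.1 and 814 in adult WT GFP+ and 901, 736 and 860.3 in adult KO cells and 698, 588 and 490.5 in perinate WT GFP+ and 573, 747 and 642 in perinate KO cells.

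**Figure D3:**
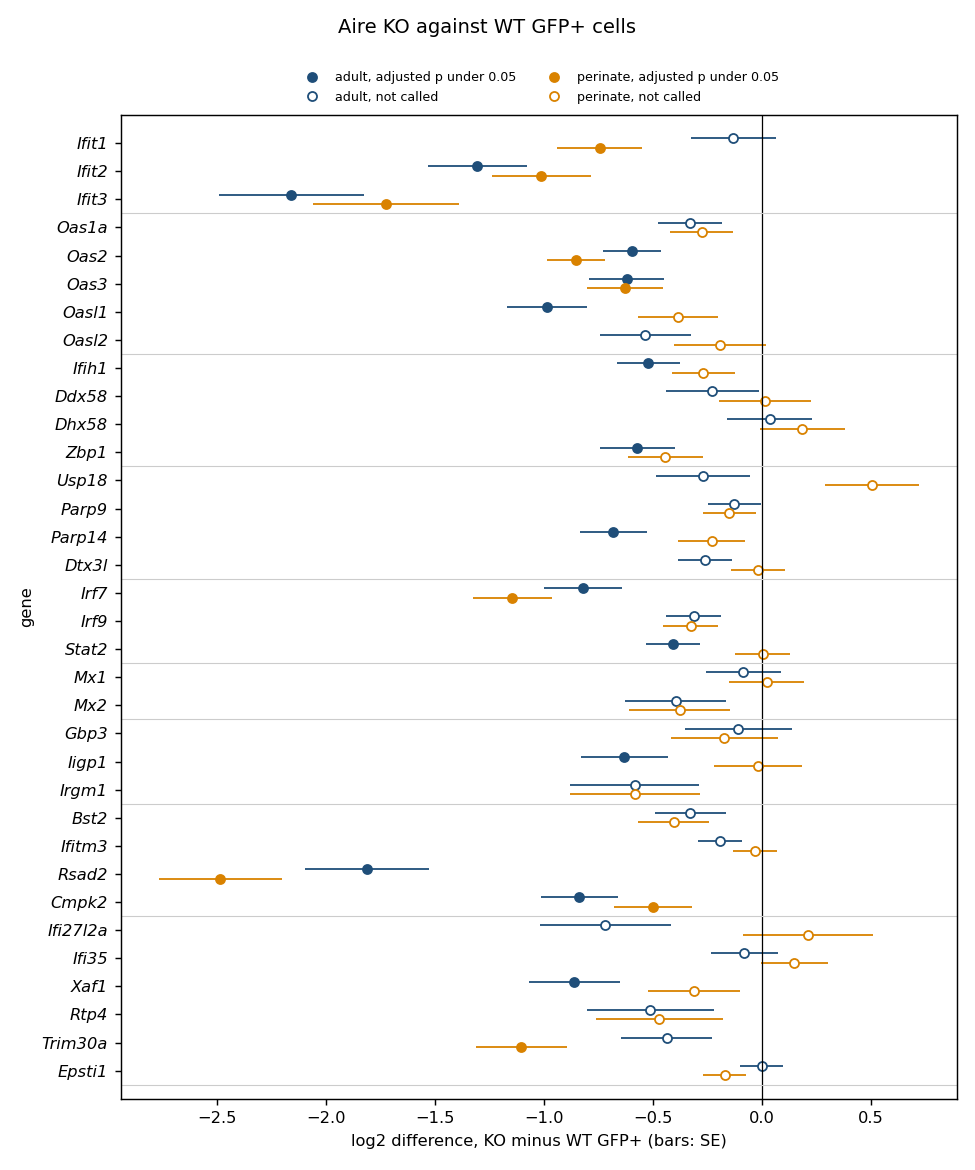
Log2 difference between Aire-KO and WT GFP+ cells for each measured gene, in adults (blue) and perinates (orange); bars are the standard error and filled points have an adjusted p below 0.05. All 23 filled points (14 adult, 9 perinate) lie to the left of 0.

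The adult and perinate KO effects were compared directly by the interaction of genotype with age. Of the 34 genes 0 were called (against 1.21% of all genes), with 2 lower and 5 higher at an unadjusted p below 0.05. Among these, Usp18 and Oasl1, given as examples, had 95% intervals of the difference of 0.13 to 1.42 and 0.051 to 1.15 on the log2 scale. The largest difference of the 34 genes was that of Ifi27l2a (0.93), which was not called either. For Ifit3 the interval was -0.57 to 1.43 and for Rsad2 -1.52 to 0.17, so differences between the ages of more than 1 on the log2 scale lie inside both. Weighting the arrays by their fitted variance gave 1 call, Usp18 (log2 difference 0.91, adjusted p = 0.0406).

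The number of calls depended on single arrays. Without adult KO array 3, 9 of the 34 genes were lower in adults. The adult calls of Iigp1, Stat2, Zbp1, Oas3 and Ifih1 were lost when at least 1 of the 6 arrays was left out, each with adult KO array 3 among them (adjusted p 0.111, 0.0798, 0.0855, 0.0712 and 0.0643 without it), whereas the other 9 of 14 held with every array left out. The highest adjusted p came without adult KO array 2 for Stat2 (0.113) and Zbp1 (0.0958) and without adult WT GFP+ array 8 for Oas3 (0.0807) and Ifih1 (0.0655). In perinates 7 of the 9 calls held with every single array left out; Cmpk2 was lost without any of the 6 (up to 0.142 without WT GFP+ array 6) and Oas3 without WT GFP+ array 6 (0.0551) or KO array 2 (0.0544). Without perinate KO arrays 2 and 3 together, 1 perinate KO array remained, so no calls are read from that fit. On that array Cmpk2 was 158, Ifit1 367, Ifit2 103 and Oas3 104.4, each below every perinate WT GFP+ array. With all arrays weighted, 13 genes were lower in perinate KO cells and 1, Usp18, higher (adjusted p = 0.013). The 13 include Bst2, Irf9, Irgm1 and Zbp1, which were not called in the main fit.

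Genes that mark other cells were read beside these falls. Counts of called markers stand beside the shares of all genes called lower and higher (10.8% and 9.06% in adults, 13% and 13.5% in perinates). Markers of a list were summed on the linear scale, so the brightest gene weighs most in a sum. Lyz2, of the dendritic cell and macrophage list, averaged 3534 over the 17 arrays, and no other gene of that list more than 447. Dcn, of the fibroblast list, averaged 2778, and no other gene of that list more than 359. The 9 measured markers of dendritic cells and macrophages summed to 6584 to 6655 in adult WT GFP+ and 5139 to 5298 in adult KO cells, with 5 of 7 tested genes lower, and to 4132 to 4746 and 3654 to 3936 in the perinate groups, with 3 of 7 lower. Adgre1 and Itgam led these (-1.95 and -1.15 in adults), while Ptprc, the CD45 gene that defines blood cells, overlapped between KO and WT at both ages (0.27 and -0.052). Adgre1 was above the 40th percentile on 5 of the 17 arrays and Itgam on 4, so the floor limits their falls. Of the 9 markers, 2 were below that percentile on every adult WT GFP+ array and 4 on every adult KO array. The 6 fibroblast markers summed to 2579 to 2951 in adult WT GFP+ and 4177 to 4505 in adult KO cells and to 4079 to 5046 and 4934 to 5237 in the perinate groups, with 2 of 6 lower and 2 of 6 higher at each age. The 6 markers of plasmacytoid dendritic cells, a main source of type I interferon, include Bst2, itself one of the 34 genes. They overlapped in their sums (1515 to 1826 and 1490 to 1827 in adult WT GFP+ and KO cells, 1573 to 1753 and 1570 to 1618 in perinates), and Siglech, their defining marker, was below the 40th percentile on every array. Of the 5 tested, 0 were called in adults. In perinate KO cells 2 were lower, Cox6a2 (-0.39) and Pacsin1 (-0.37), and 1 was higher, Tcf4 (0.35). Every perinate KO array was below every WT GFP+ array for 4 of the 5 (against 18.2% of all genes), and their median was -0.39, against 0.085 for all genes. The 8 thymocyte markers also overlapped (1092 to 2113 and 1025 to 1936 in adults, 1048 to 1420 and 999.95 to 1287 in perinates). The part of these other transcripts in the falls was not tested.

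The upstream pathway was read from lists chosen with earlier results of these data known. Its counts stand beside the same shares of all genes called lower and higher as above (10.8% and 9.06% in adults, 13% and 13.5% in perinates). None of the 6 interferon receptor genes, Ifnar1, Ifnar2, Ifngr1, Ifngr2, Ifnlr1 and Il10rb, was called in adults or perinates by limma. Of 9 JAK-STAT and IRF genes 0 were called in adults, and 3 of the 9, Irf5, Irf8 and Tyk2, were higher in perinate KO cells (0.48, 0.54 and 0.49). Trim25, which ubiquitinates RIG-I, was the single sensing adaptor or kinase of 8 called lower, at both ages (log2 difference -0.59 ± 0.090 SE, adjusted p = 0.000119 in adults and log2 difference -0.33 ± 0.090 SE, adjusted p = 0.0134 in perinates), and Tlr9 was higher in perinates (0.66). Of 10 negative regulators and nucleases, Rnaseh2b rose at both ages (0.47 and 0.48) and Rnaseh2a in perinates (0.52), both subunits of the enzyme that clears RNA paired with DNA. Of 21 interferon ligand genes listed, 4 passed the filter. None was called in adults, and 3 of the 4 were called lower in perinate KO cells. Of these, Ifna5 and Ifnl2 differed by -0.42 and -0.50. The third, Ifng, was below the 40th percentile on all 3 perinate WT GFP+ and all 3 perinate KO arrays, so no direction is read from its call. Ifnz was called at neither age (0.18 and -0.082). Ifnb1 lay between 27.0 and 45.4 on all arrays, below the 40th percentile on each.

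GFP+ cells had lower interferon-stimulated transcripts than GFP- cells of the same age in WT mice. In adults 16 of 34 genes were lower (47.1%, against 20.1% of all genes) and 1 was higher (2.94%, against 24.7%). The median log2 difference was -0.43, against 0.019 for all genes. In 20 of 34 genes every GFP+ array was below every GFP- array (25.5% of all genes), and in 2, Ifi35 and Usp18, every one was above (30.6%). In perinates 19 of 34 were lower (55.9%, against 20.5%) and 3 were higher (8.82%, against 23%), with a median of -0.47, against 0.00034 for all genes. The perinate groups were separated downward in 21 of 34 genes (27.6% of all genes) and upward in 4, Mx1, Oasl1, Rsad2 and Epsti1 (28.9%). The WT GFP+ arrays of each age also serve as the WT arrays of the KO comparison, so the KO and GFP comparisons are not independent.

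The genes lower in GFP+ cells at both ages were 12 (75% of the adult and 63.2% of the perinate calls), namely Ddx58, Dtx3l, Ifi27l2a, Ifit3, Ifitm3, Irf7, Irf9, Mx2, Parp14, Rtp4, Stat2 and Xaf1. Mx2 passed the filter only through GFP- arrays, where it is high, so it had to be lower in GFP+ cells. The counts of 16, 19 and 12 include it, as do the 20 and 21 genes with every GFP+ array below every GFP- array. Nothing is read from its part in any of them. Rtp4, a chaperone of receptors and an inhibitor of viral replication, was 383, 402 and 622 in adult GFP- and 156, 145 and 163 in adult GFP+ cells (log2 difference -1.57 ± 0.29 SE, adjusted p = 0.000343), and 952 and 632 in perinate GFP- and 163, 351 and 213 in perinate GFP+ cells (log2 difference -1.75 ± 0.33 SE, adjusted p = 0.000328). Xaf1 was 332, 317 and 485 in adult GFP- and 156, 143 and 168 in adult GFP+ cells (log2 difference -1.26 ± 0.21 SE, adjusted p = 0.000133), and 694 and 635 in perinate GFP- and 122, 245 and 194 in perinate GFP+ cells (log2 difference -1.88 ± 0.24 SE, adjusted p = 5.97e-06), the largest perinate fall. Neither gene's groups overlapped at either age. Ifi27l2a, a small interferon-induced membrane protein, was 944, 691 and 1676 in adult GFP- and 405, 372 and 515 in adult GFP+ cells (log2 difference -1.27 ± 0.30 SE, adjusted p = 0.00246). Its perinate values were 676 and 1151 in GFP- and 328, 593 and 272 in GFP+ cells (log2 difference -1.23 ± 0.34 SE, adjusted p = 0.00665).

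All 3 transcription factors were lower in GFP+ cells at both ages. Irf7 was 1049, 1054 and 1629 in adult GFP- cells, above the 452, 418 and 547 of adult GFP+ cells (log2 difference -1.37 ± 0.18 SE, adjusted p = 1.25e-05), and 864 and 711 in perinate GFP- cells (log2 difference -0.70 ± 0.20 SE, adjusted p = 0.01). Irf9 was 781, 832 and 1041 in adult GFP- and 1277 and 983 in perinate GFP- cells, above the GFP+ arrays of each age (-0.58 and -0.89). Stat2 differed by -0.60 and -0.80. Of the IFIT genes, Ifit3 was 502, 454 and 1001 in adult GFP- and 1158 and 803 in perinate GFP- cells (-1.12 and -1.42 against GFP+), whereas Ifit2 was called at neither age. Ifit1 was called lower in perinates (log2 difference -0.73 ± 0.22 SE, adjusted p = 0.0122). The RNA sensor Ddx58 was lower at both ages (-1.03 and -1.37), as were Ifitm3 (-0.55 and -0.50), Parp14 (-0.55 and -0.80) and Dtx3l (-0.34 and -0.41). Oas2, Oas3, Zbp1 and Bst2 were called lower in adults (-0.95, -0.58, -0.47 and -0.42), and Gbp3, Iigp1, Irgm1, Oasl2, Oas1a and Parp9 in perinates (-1.27, -1.61, -1.59, -0.95, -0.56 and -0.35).

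Several interferon-stimulated genes rose with GFP. Ifi35 was higher in adult GFP+ cells (log2 difference 0.47 ± 0.15 SE, adjusted p = 0.0199), and Epsti1, Rsad2 and Oasl1 were higher in perinate GFP+ cells. Rsad2 was 411 and 208 in perinate GFP- and 569.7, 609 and 439.5 in perinate GFP+ cells (log2 difference 0.87 ± 0.32 SE, adjusted p = 0.035), and 609.6, 322 and 556 in adult GFP- cells, which overlaps the adult GFP+ arrays. Without perinate GFP- array 2 the perinate difference in Rsad2 was not called (adjusted p = 0.448), nor without GFP+ array 5 (0.0809) or 6 (0.0964). Oasl1 was 404 and 379 in perinate GFP- cells, below all 3 GFP+ arrays (log2 difference 0.82 ± 0.21 SE, adjusted p = 0.00376).

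**Figure D4:**
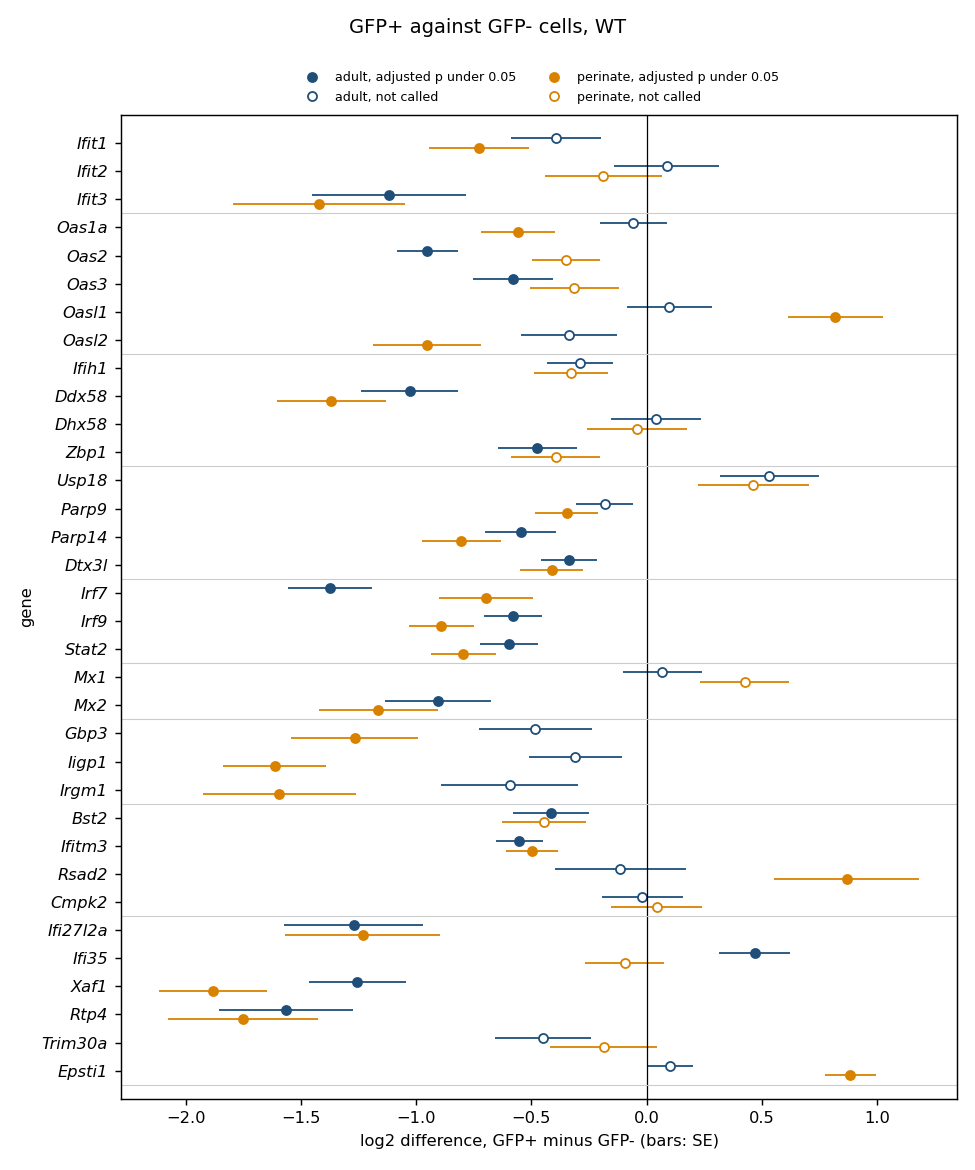
Log2 difference between GFP+ and GFP- WT cells for each measured gene, in adults (blue) and perinates (orange); bars are the standard error and filled points have an adjusted p below 0.05. Of the filled points 35 lie to the left of 0 and 4 to the right (Ifi35 in adults, Epsti1, Rsad2 and Oasl1 in perinates). Mx2 is among those to the left at both ages, and it passed the filter only through GFP- arrays.

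The effect of GFP was tested for a difference between ages. Of 34 genes 3 were called (1 lower and 2 higher in perinates, against 9.28% and 10.7% of all genes). Iigp1 was 535, 436 and 695 in adult GFP- and 472, 417 and 434 in adult GFP+ cells but 1477 and 928 in perinate GFP- and 312, 529 and 339 in perinate GFP+ cells, and its fall with GFP was larger in perinates (difference -1.31 ± 0.30 SE, adjusted p = 0.00544). Epsti1, an interferon-induced protein of epithelial and stromal cells, was 348, 319.6 and 382 in adult GFP- and 349, 399 and 378 in adult GFP+ cells and 169 and 176 in perinate GFP- and 287, 338 and 335 in perinate GFP+ cells, so that its rise was seen in perinates (difference 0.78 ± 0.15 SE, adjusted p = 0.00137). Oas2 was 218, 201 and 290.2 in adult GFP- and 192 and 175 in perinate GFP- cells, and its fall with GFP was larger in adults (difference 0.60 ± 0.20 SE, adjusted p = 0.0431). The Oas2 call was lost when any of 7 of the 11 arrays was left out, with adjusted p from 0.0603 without perinate GFP- array 1 to 0.132 without perinate GFP- array 2. With the replicate number as a block for the same-numbered adult arrays, the Oas2 call was lost (adjusted p = 0.0524) and Irf7 was called (log2 difference 0.68, adjusted p = 0.0448). The count was 5 without perinate GFP- array 2 or perinate GFP+ array 6, and 2 without adult GFP- array 8.

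Calls of the GFP comparison also rested on single arrays. Without adult GFP- array 8, 11 genes were called in adults, and Ifit3, Bst2, Zbp1, Oas3, Dtx3l and Parp14 were not called (adjusted p 0.0755, 0.255, 0.145, 0.0748, 0.0945 and 0.0516). Ifi35 was not called without adult GFP- array 7 (0.0805), adult GFP- array 6 (0.056) or adult GFP+ array 6 (0.073). In perinates, where 2 arrays stand for GFP- cells, Ifit1, Ifit3, Irf7, Oas1a, Dtx3l and Parp9 lost their call without GFP- array 1 (adjusted p 0.422, 0.0682, 0.102, 0.121, 0.157 and 0.0758), and Ifi27l2a and Parp9 without GFP- array 2 (0.118 and 0.231). With every array left out in turn, 10 of 17 calls held in adults and 14 of 22 in perinates.

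GFP+ and GFP- cells differed in epithelial state markers and in other cells' markers. Counts of called markers stand beside 20.1% lower and 24.7% higher of all genes in adults, and 20.5% and 23% in perinates. Of the 10 medullary epithelial markers, Aire among them, 1, Krt5, was lower and 6 were higher in adult GFP+ cells (median 0.42). In perinate GFP+ cells 1 of the 10 was called lower and 7 higher (median 1.07). Krt5, a basal keratin, was 4001 to 6551 on adult GFP- and 1502 to 2125 on adult GFP+ arrays (log2 difference -1.49 ± 0.31 SE, adjusted p = 0.000899), and 5300 to 5415 and 1810 to 4928 in perinates (-0.84 ± 0.35 SE, adjusted p = 0.0599). The dendritic cell and macrophage markers summed to between 5056 and 6021 in GFP- cells of adults and to between 847 and 1065 in those of perinates, below the GFP+ arrays of the same age, and 7 of 9 were below the 40th percentile on both perinate GFP- arrays. The plasmacytoid markers, Bst2 among them, summed to 1857 to 2273 and 2404 to 2693 in adult and perinate GFP- cells, above the GFP+ arrays of each age, with Siglech below the 40th percentile throughout. Of the 5 tested, 2 were lower in adult GFP+ cells, Bst2 (-0.42) being one of them, and in perinates 1 was lower and 1 higher (median -0.032).

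Markers of cortical epithelium differed with GFP as well. Ccl25, the brightest of the 5 (mean 4382 over the 17 arrays, 916 for the next), weighs most in their sum. The 5 summed to 4142 to 4493 in adult GFP- and 6980 to 8025 in adult GFP+ cells, and to 5488 to 5965 and 4379 to 6621 in perinates. In adult GFP+ cells 0 were lower and 2 were higher, Ccl25 (0.93) and Enpep (1.24), against 20.1% and 24.7% of all genes. In perinate GFP+ cells 3 of 5 were lower, Prss16 (-2.29), Psmb11 (-1.64) and Ly75 (-1.49), and 2 were higher, Ccl25 (1.66) and Enpep (0.41). The shares of all genes there were 20.5% lower and 23% higher. The effect of GFP was called lower in perinates than in adults for 4 of the 5 (against 9.28% of all genes, median difference -1.63). The part of all these markers in the differences was not tested.

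Upstream, of the 6 interferon receptor genes 1 was lower and 2 were higher in adult GFP+ cells (against 20.1% and 24.7% of all genes). In perinates 3 were lower and 1 was higher (against 20.5% and 23%). Of the 6, the type III receptor gene Ifnlr1 differed most downward (-0.92 and -1.21). Ifngr2, of the type II receptor, differed most upward (0.61 and 0.77). Ifnlr1 was above the 40th percentile on 10 of the 17 arrays, so its low values lie near the floor. The other pathway lists are not described for GFP.

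Comparing perinates with adults, the set did not move as one. In WT GFP+ cells 6 genes were lower in perinates (17.6%, against 13.6% of all genes) and 1 was higher (2.94%, against 8.52%), with a median of -0.16. In WT GFP- cells 8 were lower (23.5%, against 24.2%) and 5 higher (14.7%, against 22.2%), with a median of -0.10. In KO GFP+ cells 5 were lower (14.7%, against 12.7%) and 3 higher (8.82%, against 13.4%), with a median of -0.0078. The shares called lower are near those of all genes, and the shares called higher are below them. In the same order, the medians of all genes were -0.0015, 0.016 and -0.012, and 23, 20 and 18 of the 34 genes lay below 0. In WT GFP+ cells 13 were lower and 2 higher at an unadjusted p below 0.05 in limma. No shift of the set with age is read from the calls, and a small one in WT GFP+ cells was not tested.

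Single genes differed by age all the same. Usp18 was 2335, 2791 and 2892 in adult and 1269 and 1089 in perinate GFP- cells (log2 difference -1.18 ± 0.24 SE, adjusted p = 0.000754), and its WT GFP+ values were also lower in perinates (log2 difference -1.25 ± 0.22 SE, adjusted p = 0.000735). Oasl1 was 1503, 1139 and 1296 in adult GFP- cells, against the 404 and 379 of perinate GFP- cells (log2 difference -1.74 ± 0.21 SE, adjusted p = 3.32e-06), and was lower in perinate WT GFP+ cells too (log2 difference -1.02 ± 0.18 SE, adjusted p = 0.00104). Trim30a was lower in perinates in all 3 comparisons (-0.82 in WT GFP+, -1.08 in WT GFP- and -1.49 in KO cells), with 834, 875 and 1204 in adult and 408 and 501 in perinate GFP- cells. Ifit1 was lower in perinate WT GFP+ (log2 difference -0.91 ± 0.19 SE, adjusted p = 0.00336) and KO cells (log2 difference -1.53 ± 0.19 SE, adjusted p = 4.28e-05). Its fall in GFP- cells, from 1931, 1745 and 1578 to 1700 and 803, rested on perinate array 2, without which the adjusted p was 0.883. Zbp1 was called lower in perinates in all 3 comparisons (-0.63, -0.71 and -0.50), but each call rested on single arrays. In WT GFP+ cells it was lost without perinate array 5 (adjusted p = 0.0772), adult array 7 (0.0575) or adult array 8 (0.0513), in GFP- cells without perinate array 1 (0.0619), and in KO cells without any of 5 of the 6 arrays (up to 0.156 without perinate KO array 1).

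The interferon-gamma-inducible GTPases ran the other way in GFP- cells. Iigp1 (1.10), Irgm1 (1.09) and Gbp3 (1.05) were all higher in perinates than in adults. In the same comparison 3 of 5 markers of cortical epithelium were higher, Prss16 (2.81), Psmb11 (1.90) and Ly75 (0.54), and 1 was lower, Ccl25 (-1.18). Of all genes 22.2% were higher and 24.2% lower there. The part of these markers was not tested. Irgm1 was 1061, 661 and 929 in adult GFP-, 2859 and 1188 in perinate GFP-, 737, 475 and 543 in adult GFP+ and 608, 919 and 407 in perinate GFP+ cells. Its adjusted p was 0.013 with all arrays, 0.316 without perinate GFP- array 1 and 0.0555 without adult GFP- array 7, and that of Gbp3 was 0.0876 without perinate GFP- array 1. Ddx58 and Xaf1 were higher in perinate GFP- cells (0.85 and 0.84) and in perinate KO cells (0.76 and 0.76). Ddx58 was 542, 559 and 955 in adult GFP-, 1258 and 1135 in perinate GFP-, 294, 319.5 and 225 in adult KO and 494, 462 and 448 in perinate KO cells. Both lost the GFP- call without perinate GFP- array 1 (0.0553 and 0.0552). Ifitm3 was higher in perinate WT GFP+ (0.33) and KO cells (0.48).

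The remaining age calls were Ifi35, lower in perinate WT GFP+ cells (-0.58), Oas3, Irf7 and Epsti1, lower in perinate GFP- cells (-0.76, -0.63 and -1.01), and Oas3 and Epsti1, lower in perinate KO cells (-0.50 and -0.40). With every single array left out in turn, 4 of 7 age calls held in WT GFP+ cells, 5 of 13 in WT GFP- cells and 4 of 8 in KO cells. Calls were lost for Ifitm3 and Ifi35 in WT GFP+ cells, with the highest adjusted p without adult array 7 (0.114) and perinate array 7 (0.0643). In GFP- cells the highest value was 0.0596 for Oas3, without perinate array 1, and 0.142 for Irf7, without perinate array 2. In KO cells it was 0.131 for Oas3, without adult array 1, and 0.0781 and 0.0757 for Ddx58 and Xaf1, without adult array 3. The KO count by age was 8 with all arrays, 5 without adult KO array 3 and 5 without perinate KO array 1. It was 13 (6 lower, 7 higher) with weighted arrays and 14 (7 lower, 7 higher) when the KO groups alone were fitted.

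Over all 6 groups, the highest group mean was in GFP- cells for 27 of the 34 genes (13 in adults and 14 in perinates), and the lowest was in KO cells for 28 (15 in adults and 13 in perinates). Mx2, which passed the filter only through GFP- arrays, is among the genes highest in adult GFP- cells. The order of the groups follows from the comparisons above and is given as a description. Within groups the genes moved together. The deviations of the 34 genes from their group means had a median pairwise correlation of 0.41 over the 17 arrays (486 of 561 pairs above 0), against 0.03 for every 7th gene tested, with all pairs sharing the same arrays and normalization.

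Arrays differed in the level of the whole set. On adult GFP- array 8, 31 of 34 genes were above their group mean (median deviation 0.30 on the log2 scale), and on perinate WT GFP+ array 6 also 31 of 34 (0.24). On perinate WT GFP+ array 5, 6 of 34 were above (-0.19), on adult KO array 1, 29 of 34 (0.12), and on adult KO array 3, 8 of 34 (-0.13). Krt5 stood apart on 3 of these arrays, at 6551 on adult GFP- array 8 (4427 and 4001 on the others of its group), 4928 on perinate WT GFP+ array 6 (1810 and 3015) and 904 on adult KO array 3 (1744 and 1854). What sets these arrays apart was not tested.

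**Figure D5:**
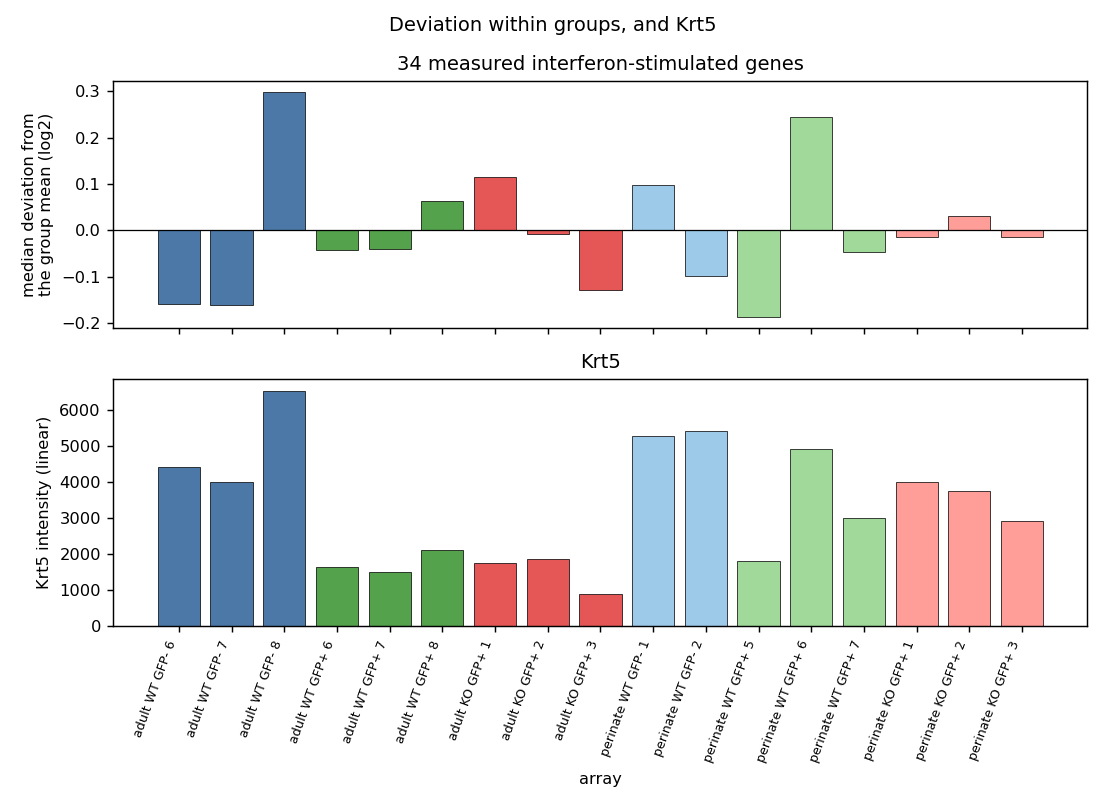
Upper panel, median deviation of the 34 genes from their group means (log2) on each of the 17 arrays; lower panel, Krt5 intensity (linear axis from 0) on the same arrays, coloured by group. Adult GFP- array 8 and perinate WT GFP+ array 6 are high within their group in both panels, and adult KO array 3 is low in both.

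The promoter windows were set beside the KO calls. Of the 16 genes lower in KO cells at one age or the other, 12 had a window and 7 of them (58.3%) held the response element letters. Of the 18 that were not, 11 had a window and 6 (54.5%) held them. Beyond those shown above, matches lay before the start in Ifit1 (104 and 85 bases), Oas3 (75), Oas1a (20 and 14), Bst2 (130 and 124), Stat2 (222), Gbp3 (45 and 39) and Irgm1 (30 and 24). They lay after the start in Ifih1 (33 bases), Ddx58 (3), Ifitm3 (3 and 20) and, at a start not shown above, Trim30a (3). The shares with and without a KO call were close, at 12 and 11 genes, and no difference between them was tested.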

How the data were processed

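Expression was measured in 17 samples of sorted mouse medullary thymic epithelial cells, RNA being extracted with TriZol, per the labels' protocols. The authors deposited 1 table of intensities on a linear scale for 24922 probe sets. Affymetrix Power Tools and RMA are named in the submitters' processing notes, and whether all arrays were normalized together is not given in the sources used here. Such summarising compresses fold changes near background. Of the probe sets, 21425 carry 1 gene symbol in the platform annotation, 1399 several and 2098 none; only the first kind was used. The table held 0 columns that were left unused.

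Values were converted to log2. limma 3.58.1 (R 4.3.3) was fitted with 6 group means over all 17 arrays (11 residual degrees of freedom, prior 5.52), two-sided, on the 13842 genes above the 40th percentile of their array on at least 2 arrays, with Benjamini-Hochberg adjustment and a threshold of 0.05. The fit was tested on simulated data. The number of arrays limits the precision. Normalization, centring, the filter, the choice of probe set, array weights, the groups fitted, the replicate block and each left-out array were varied.

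The interferon-stimulated genes and the pathway and marker lists were chosen with earlier results of these data known. Values on each array are given for the 4 called genes with the largest difference in each genotype, GFP and age comparison. They are also given for those called for a difference between ages, and for the gene with the highest mean in each role group. Pathway genes are named where called for genotype, ligands where tested, and receptors throughout for genotype. For GFP, Ifnlr1 and Ifngr2 are named as the receptor genes that differed most. Adult GFP- and GFP+ samples share the numbers 6, 7 and 8. Deviations of same-numbered samples from their group means correlated at 0.50, 0.44 and 0.19. The last equals the 0.19 of the adult and perinate WT GFP+ samples numbered 7, which come from different ages, so these values do not establish a pairing. The main test used no pairing, and a block for the number was fitted as an alternative. Promoter sequences are from RefSeq (GRCm38.p6).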

Additional observations from a re-analysis of the deposited data

Results flagged for a closer look

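Each of these 3 genes had an effect of GFP that differed between perinates and adults by the interaction term of limma over 17 arrays, with Benjamini-Hochberg adjustment over 13842 genes. For Iigp1 the log2 difference between GFP+ and GFP- cells was lower in perinates than in adults by -1.31 (adjusted p = 0.00544). For Epsti1 it was higher in perinates by 0.78 (adjusted p = 0.00137). For Oas2 it was higher in perinates by 0.60 (adjusted p = 0.0431). The Oas2 call was lost with any of 7 of the 11 arrays left out. It was also lost under 3 of 7 other settings, with the highest adjusted p, 0.141, under array weights. Perinate GFP- cells are represented by 2 arrays.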

How the results depend on the processing

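Leaving out each array in turn gave from 9 to 13 calls for KO in adults (14 with all arrays), 7 to 11 for KO in perinates (9), 11 to 15 for GFP in adults (17), 16 to 24 for GFP in perinates (22), 2 to 5 for the difference in the GFP effect between ages (3), and 0 to 0 for the difference in the KO effect (0). For age it gave 5 to 8 in WT GFP+ cells (7), 10 to 15 in WT GFP- cells (13) and 5 to 7 in KO cells (8). Quantile normalization gave 5 calls for the difference in the GFP effect (1 lower, 4 higher). Array weights gave 14 for KO in perinates, 1 for the difference in the KO effect and 13 for age in KO cells, and fitting the KO groups alone gave 14 for age in KO cells. The cause was not tested for any of these changes. Leaving out perinate KO arrays 2 and 3 together leaves 1 perinate KO array, so no counts are given for that fit, though it is among the other settings counted below. The other changes in counts for median centring, no filter on dim probe sets, the mean of a gene's probe sets, and the remaining comparisons under the settings above stayed within 1.5 times. The 93 calls of single genes reversed in 0 of the fits made; under other settings the call was kept 573 times and lost 37 times, and with an array left out it was kept 433 times and lost 105 times. With the replicate block, adult GFP gave 17 calls and the difference in the GFP effect 3, where Oas2 lost its call (adjusted p = 0.0524) and Irf7 gained one (0.0448); no other call of these 2 comparisons changed. The numbers shared by KO groups (r from 0.039 to 0.059) and WT GFP+ groups (r of 0.033 and 0.19) join different ages and were not taken to pair them. A block there gave 6 and 5 calls. Genes with levels under an array's 40th percentile, such as Ifit2, Ifit3, Oas2, Oas3, Rsad2 and Xaf1 in KO cells, are limited by the floor.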
